A study of Mus musculus with 4 samples.

Results

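The genes described here are factors of ribosome biogenesis and subunits of RNA polymerase I. They were taken by symbol as all genes whose names begin with Nop, Utp or Rrp followed by a digit or with Polr1 followed by a letter, as Wdr12, Wdr43 and Wdr75, and as 14 further genes (Ppan, Ncl, Npm1, Fbl, Dkc1, Gar1, Nhp2, Bop1, Pes1, Nolc1, Rrs1, Gnl3, Nob1 and Ftsj3). This gave 46 genes among 23238 symbols, each on a single row, and all 46 passed the filter on low counts. Genes that the tables list under older names, such as Cirh1a for the Utp4 protein, lie outside this choice and are given with the wider pathway. RNA came from CD4+ T cells of C57BL/6j mice, either wild type (2 libraries) or lacking Pdk4 (labelled PDK4 KO, 2 libraries), to ask which transcripts depend on that genotype. Naive cells of both genotypes were isolated from spleen and lymph nodes by MACS, a magnetic sort, and kept for 48 hours under stimulation through CD3 and CD28 with IL-2 added, so that no unstimulated cells serve as a reference. The age of the mice, the allele and the deleted part of Pdk4 were not given in the sources used here, and nothing says that the libraries of a genotype stem from different mice or cultures. The p-values therefore reflect only how far these 4 libraries scatter, and that scatter may be technical. Libraries were made with the Lexogen QuantSeq kit, which reads transcripts near their 3' ends, so levels are CPM (library-size-scaled counts) with TMM scaling and are not divided by gene length.

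Ribosomes are assembled in the nucleolus. RNA polymerase I transcribes the ribosomal RNA precursor, small nucleolar ribonucleoproteins (snoRNPs) guide its methylation and pseudouridylation, and large assemblies of processing factors fold and cut it into the RNAs of the small (40S) and large (60S) subunits. T cells enlarge their nucleoli and increase ribosome production when they leave quiescence, and many of these genes are known as targets of the transcription factor MYC.

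The 4 libraries held 8837810 to 9739624 counts, and 13527 to 13763 genes had a count in each. Together the 46 genes held 0.908% and 0.896% of the wild-type counts (80265 and 85776, replicates 1 and 2) and 1.00% and 0.981% of the knockout counts (97722 and 89293). Pdk4 had 1 and 0 counts in wild type against 0 and 2 in knockout, all under the floor of 3 counts, so it gave no check of the labels. Markers of CD4+ T cells were present, with Cd4 at 252 and 255 CPM in wild type and 269 and 251 CPM in knockout. The 8 markers summed to 2816 and 2879 CPM in wild type and to 2648 and 2659 CPM in knockout. Of these, Cd2 fell (-0.41, adjusted p = 0.000107), Cd5 rose (0.29, adjusted p = 0.034) and 6 did not pass, among which Cd3d (-0.16, adjusted p = 0.273) and Cd3g (-0.28, adjusted p = 0.359) were lower in both knockout libraries. Of 10 B cell markers, 8 were tested and 7 fell, and their summed level was 114 CPM in each wild-type library and 21.1 and 22.5 CPM in the knockout libraries, with Pax5 at 0 counts in all 4. The 10 markers of CD8 T and NK cells summed to 563 and 565 CPM in wild type and to 406 and 362 CPM in knockout. Of the 9 tested, Gzma alone fell, from 219.6 and 219.2 to 76.2 and 51.3 CPM, and without it the sums were 343 and 346 against 329 and 310.3 CPM. Cd8a was at 2.62 and 2.96 against 0.409 and 0.544 CPM (adjusted p = 0.119), which in knockout are 4 and 5 counts. Cd8b1 was more abundant and overlapped, at 23.2 and 16.4 against 11.7 and 20.5 CPM (adjusted p = 0.676). The 7 proliferation markers summed to 1801 and 1886 CPM in wild type and 1753 and 1639 CPM in knockout. Mki67 fell (-0.33 on the log2 scale, SE 0.0835, adjusted p = 0.0204) and the other 6 did not pass. Of the 7, 3 had a log2 fold change above 0 (Mcm5, Pcna and Cdk1), and the median was -0.003. The part of these shifts in the results on ribosome biogenesis was not tested. In bulk RNA, more cells of a type and more RNA per cell cannot be told apart.

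Of the 46 genes, 3 rose in the knockout, 0 fell and 43 did not pass the test (edgeR's quasi-likelihood test, Benjamini-Hochberg adjusted p under 0.05 over 11464 genes). The genes that rose were Ppan and Gnl3, which act in 60S assembly, and Wdr75 of the small subunit processome. These 3 are 6.52% of the 46 genes, and 1.45% of all tested genes rose, 1.21% fell and 2.66% did either. No fall was called by edgeR, DESeq2 or limma-voom. At an unadjusted level 1 gene, Rrp7a, had an unadjusted p under 0.05 with a lower level in the knockout (6.68% of all tested genes did), whereas 11 had an unadjusted p under 0.05 with a higher level (6.80% of all tested genes did). Both knockout libraries stood above both wild-type libraries for 22 of the 46 genes, against 21.5% of all tested genes, and below them for 3, against 21.9%. The other 21 overlapped.

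The shifts were small. The fitted log2 fold change of knockout over wild type was above 0 for 36 of the 46 genes, against 50.1% of all tested genes, and its median was 0.10, against 0.00 over all tested genes. The quartiles of the 46 values were 0.01 and 0.20, and those of all tested genes -0.18 and 0.18. The full range ran from -0.31 (Rrp7a) to 0.72 (Ppan). Among the 43 genes that did not pass, the 95% interval of 36 stayed inside a 1.5-fold change in either direction, and that of the other 7 reached beyond it.

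**Figure D1:**
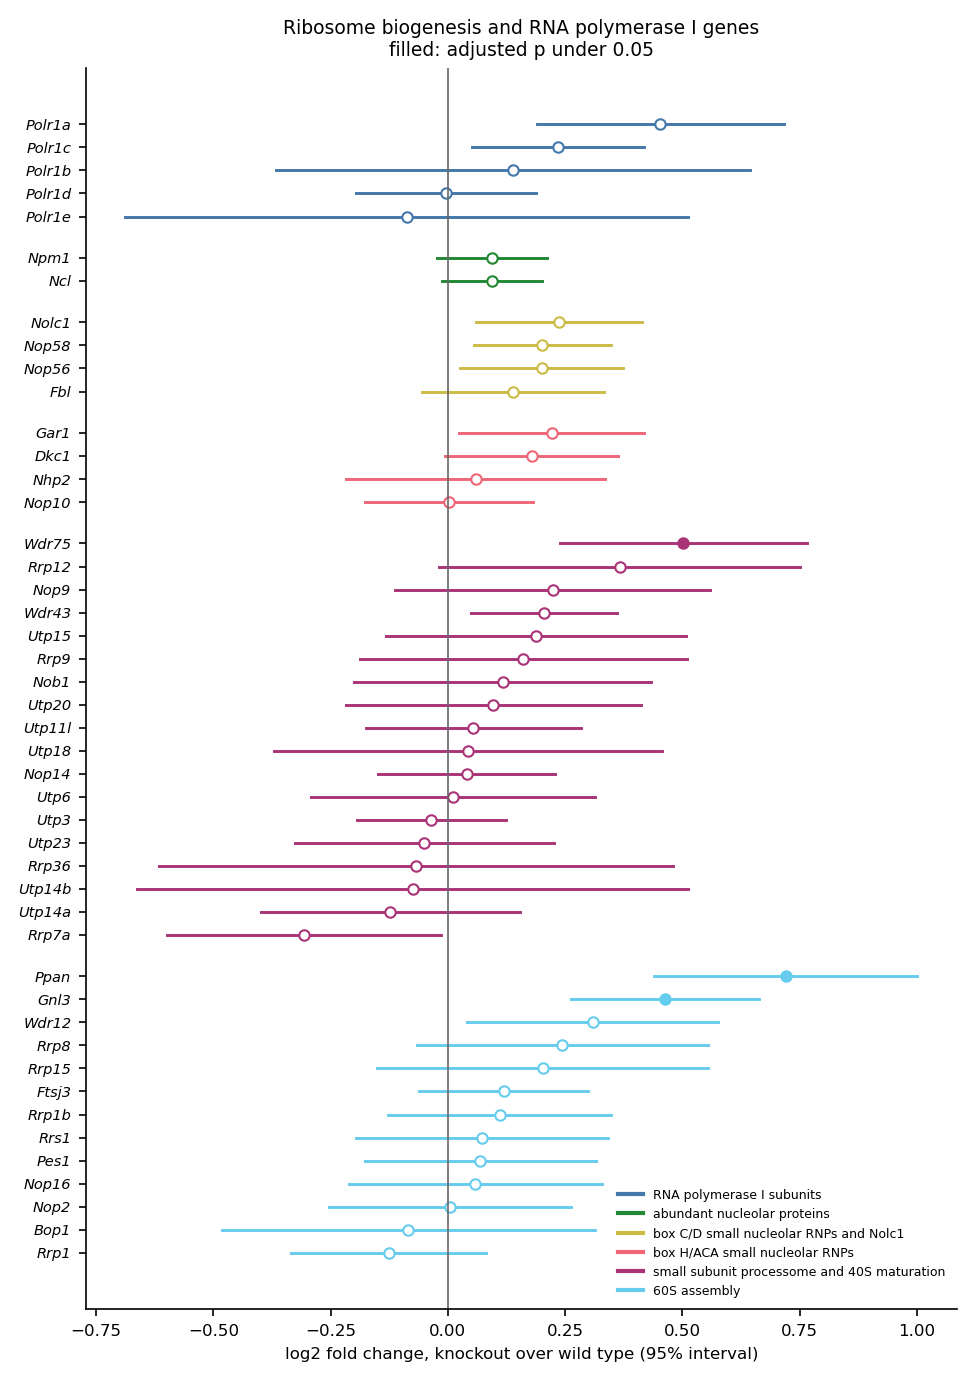
Fitted log2 fold change of knockout over wild type (x axis) for each of the 46 genes (y axis), grouped by role in colour, with 95% intervals of the edgeR fit as lines. Filled points are the 3 genes with an adjusted p under 0.05 (Ppan, Gnl3 and Wdr75), and 36 of the 46 points lie right of 0.

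**Figure D2:**
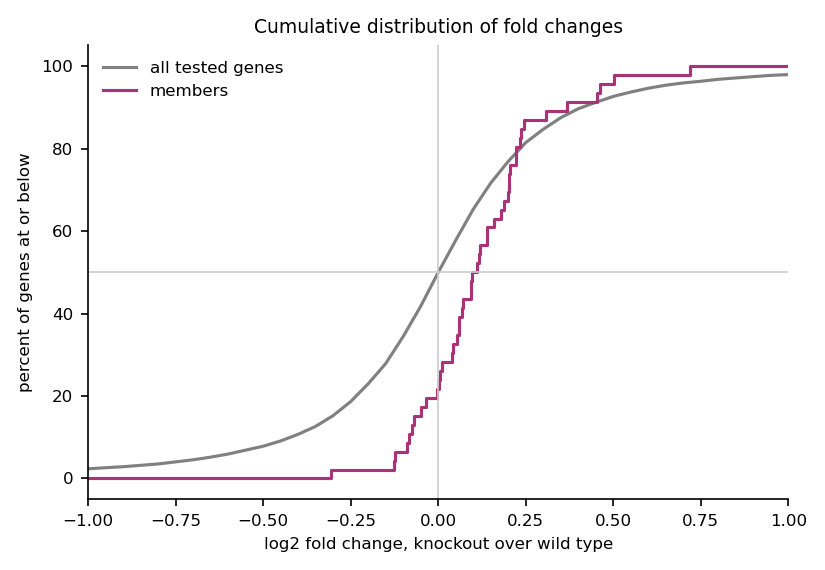
Cumulative share of genes (y axis, percent) at or below each log2 fold change of knockout over wild type (x axis, shown from -1 to 1) for the 46 genes and for all 11464 tested genes. The curve of the 46 genes crosses 50% at 0.10 and that of all tested genes at 0.00.

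Ppan encodes the Peter pan homolog, a nucleolar factor of 60S assembly. Its level was 38.3 and 40.6 CPM in the wild-type libraries (replicate 1, then 2, here and throughout) against 66.5 and 63.6 CPM in the knockout libraries. Both knockout libraries were clearly above both wild-type libraries, and the libraries of a genotype were close to each other. The means were 39.5 ± 1.59 and 65.0 ± 2.07 CPM (SD, n = 2 each), a 1.65-fold higher level in the knockout (log2 fold change 0.72, SE 0.138, adjusted p = 0.00142). It was the single gene of the 46 that passed in all 13 alternative analyses. Gnl3 encodes nucleostemin, a nucleolar GTPase of dividing cells that takes part in 60S assembly. It was at 120.0 and 147 CPM in wild type and at 184 CPM in each knockout library, so the genotypes did not overlap although the wild-type libraries lay apart. It rose 1.38-fold (0.46, SE 0.0985, adjusted p = 0.00412), with means of 134 ± 19.3 and 184 ± 0.0355 CPM, and lost its call when wild-type replicate 1 was left out (0.32, adjusted p = 0.127).

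Both genes carry small nucleolar RNA genes within their introns, which are cut from the spliced-out intron to guide the methylation of other RNAs. The annotation (GENCODE vM21, GRCm38) places 2 of them in Ppan (chromosome 9, 20888175 to 20892178, plus strand) and 3 in Gnl3 (chromosome 14, 31012433 to 31019152, minus strand). They are shown, as transcribed, because hosting such genes is a feature that several of the 46 genes share. Capitals mark each TGATGA, the form of the C box that was searched, and the last CTGA, the D box. No TGATGA match in Snord19 says only that these letters are not in its sequence.
Gm24067 (Ppan, chr9:20889484-20889568): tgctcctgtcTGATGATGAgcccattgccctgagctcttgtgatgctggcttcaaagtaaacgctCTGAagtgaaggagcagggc
Gm23008 (Ppan, chr9:20890757-20890836): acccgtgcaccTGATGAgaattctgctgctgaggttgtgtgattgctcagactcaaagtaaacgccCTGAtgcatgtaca
Snord69 (Gnl3, chr14:31014287-31014366): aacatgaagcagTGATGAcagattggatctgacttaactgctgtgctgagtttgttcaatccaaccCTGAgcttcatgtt
Gm24916 (Gnl3, chr14:31015148-31015226): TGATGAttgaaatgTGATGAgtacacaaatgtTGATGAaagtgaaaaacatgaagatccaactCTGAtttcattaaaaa
Snord19 (Gnl3, chr14:31016206-31016281): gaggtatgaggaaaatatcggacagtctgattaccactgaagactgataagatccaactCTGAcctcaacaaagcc

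Of the 13 genes of 60S assembly, 2 rose, 0 fell and 11 did not pass, with a median log2 fold change of 0.11. Both knockout libraries were the higher ones in 8 (61.5%), against 21.5% of all tested genes. Wdr12, Pes1 and Bop1 form the PeBoW complex, which is needed to process the RNAs of the large subunit, and their values differed. Wdr12 was at 52.1 and 52.6 CPM in wild type and 66.8 and 62.9 CPM in knockout, with no overlap (0.31, SE 0.131, adjusted p = 0.273). Its 3' end has near-identical copies in other transcripts, so its value is uncertain in that respect. Pes1 was at 72.0 and 69.2 against 75.9 and 72.3 CPM (0.07, adjusted p = 0.878). Bop1 was at 24.2 and 41.5 CPM in wild type, a 1.71-fold ratio and the highest between libraries of a genotype among the 46 genes, and at 32.1 and 30.04 CPM in knockout (-0.08, 95% interval -0.48 to 0.31). Its direction therefore rests on which wild-type library is used. Ftsj3, an RNA methyltransferase of the large subunit precursor, was at 177 and 178 CPM in wild type and 187 and 199 CPM in knockout (0.12, adjusted p = 0.621). Rrp1 had the opposite sign, at 123 and 142 CPM against 123 and 119 CPM (-0.13, adjusted p = 0.66). The other 6 genes, Rrp8, Rrp15, Rrp1b, Rrs1, Nop16 and the methyltransferase Nop2, had log2 fold changes between 0.01 and 0.24 and adjusted p-values from 0.52 to 0.995.

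The small subunit processome is the large assembly on the nascent precursor that makes the small subunit RNA. Of its 18 genes, taken with those of later 40S maturation, 1 rose, 0 fell and 17 did not pass. Their median was 0.05. Both knockout libraries were the higher ones in 5 (27.8%) and the lower ones in 3, against 21.5% and 21.9% of all tested genes. Wdr75 (chromosome 1, 45795166 to 45823619) belongs to UtpA, the module that joins the precursor first. It was at 51.8 and 50.7 CPM in wild type and at 75.7 and 69.4 CPM in knockout. All 4 values separate by genotype, with means of 51.2 ± 0.721 and 72.6 ± 4.42 CPM (n = 2 each). The level was 1.42-fold higher in the knockout (0.50, SE 0.129, adjusted p = 0.0245), and the call was lost without any 1 of the 4 libraries (adjusted p between 0.0577 and 0.245). Other UtpA genes did not pass. Wdr43 was at 353 and 370 CPM in wild type and 438 and 395 CPM in knockout (0.20, SE 0.0759, adjusted p = 0.182), and Utp15 at 38.2 and 37.4 against 47.5 and 38.6 CPM (0.19, adjusted p = 0.676). In the wider pathway list, UtpA genes with other names had values of 0.36 (Nol11), 0.31 (Heatr1) and 0.22 (Cirh1a), with adjusted p of 0.116, 0.232 and 0.471. The 6 UtpA genes were put side by side after their values were seen.

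Rrp7a, another processome component, had the lowest fold change of the 46 genes. It was at 50.4 and 60.04 CPM in wild type and at 42.7 and 46.7 CPM in knockout, so both knockout values lay below both wild-type values (-0.31, SE 0.143, adjusted p = 0.333). A processed pseudogene matches its last 300 bases at 98.7% identity, and Serhl lies over its end on the opposite strand, so its value is uncertain. Utp14a was at 56.4 and 54.0 against 50.9 and 50.5 CPM (-0.12, adjusted p = 0.775), and Utp23 at 54.1 and 54.4 against 53.6 and 51.3 CPM (-0.05, adjusted p = 0.93). These are the 3 genes with both knockout libraries below. Utp14b, a retrotransposed copy of Utp14a, was low, at 9.25 to 11.8 CPM in the 4 libraries, and Acsl3 lies over its last 500 bases on the same strand, so its value is uncertain. Utp3 was at 306 and 321 CPM in wild type and 318 and 294 CPM in knockout, with a narrow interval around no change (-0.04, 95% interval -0.19 to 0.12). Rrp12, which acts in the export and late maturation of the small subunit, was at 23.0 and 22.4 against 29.4 and 29.2 CPM, without overlap but at a level where the interval is wide (0.37, -0.02 to 0.75, adjusted p = 0.398). Nob1, the nuclease that makes the final cut in the small subunit RNA, was at 36.6 and 40.1 against 44.2 and 39.0 CPM (0.12, adjusted p = 0.825). The other 8 genes, among them the U3 snoRNP protein Rrp9, had values from -0.07 (Rrp36) to 0.22 (Nop9).

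RNA polymerase I is represented by 5 of the 46 genes, of which 0 passed. Polr1a encodes the largest subunit, which carries the catalytic centre together with the product of Polr1b. Polr1a was at 52.3 and 50.3 CPM in wild type and at 71.6 and 68.9 CPM in knockout. The genotypes did not overlap, with means of 51.3 ± 1.42 and 70.2 ± 1.91 CPM (n = 2 each), and the test missed the threshold (0.45, SE 0.129, 95% interval 0.19 to 0.72, adjusted p = 0.0514). It passed in 4 of 13 alternatives, among them limma-voom (adjusted p = 0.0455), and not with DESeq2 (0.106), with adjusted p from 0.0388 to 0.274 over all 13. Polr1b had few counts, at 12.9 and 15.5 against 14.1 and 17.2 CPM, and its interval runs from -0.37 to 0.64. Polr1c and Polr1d encode subunits that RNA polymerases I and III share. Polr1c was at 159.9 and 155 CPM in wild type and 188 and 182 CPM in knockout, with no overlap (0.23, SE 0.0899, adjusted p = 0.204). Polr1d was at 172 and 155 against 156 and 171 CPM, with overlap (95% interval -0.20 to 0.19). Polr1e was at 9.10 to 12.7 CPM in the 4 libraries. The tables list 3 further subunits of the enzyme under older symbols, outside the 46 genes. Their genotypes overlapped and they did not pass, with log2 fold changes of 0.15 (Twistnb, adjusted p = 0.598), -0.09 (Cd3eap, 0.878) and -0.19 (Znrd1, 0.682).

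The row Rn45s, named for the ribosomal RNA precursor that this polymerase makes, is no member of the set. It held 12.2% and 11.6% of the wild-type counts against 12.3% and 11.6% of the knockout counts. Its fitted change was -0.01 (SE 0.0322, adjusted p = 0.912), and its level was higher in replicate 1 than in replicate 2 of either genotype. The precursor has no ordinary poly(A) tail, and counts by symbol do not separate it from the mature RNAs cut from it. These counts are therefore no measure of the precursor's level or of transcription by RNA polymerase I.

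**Figure D3:**
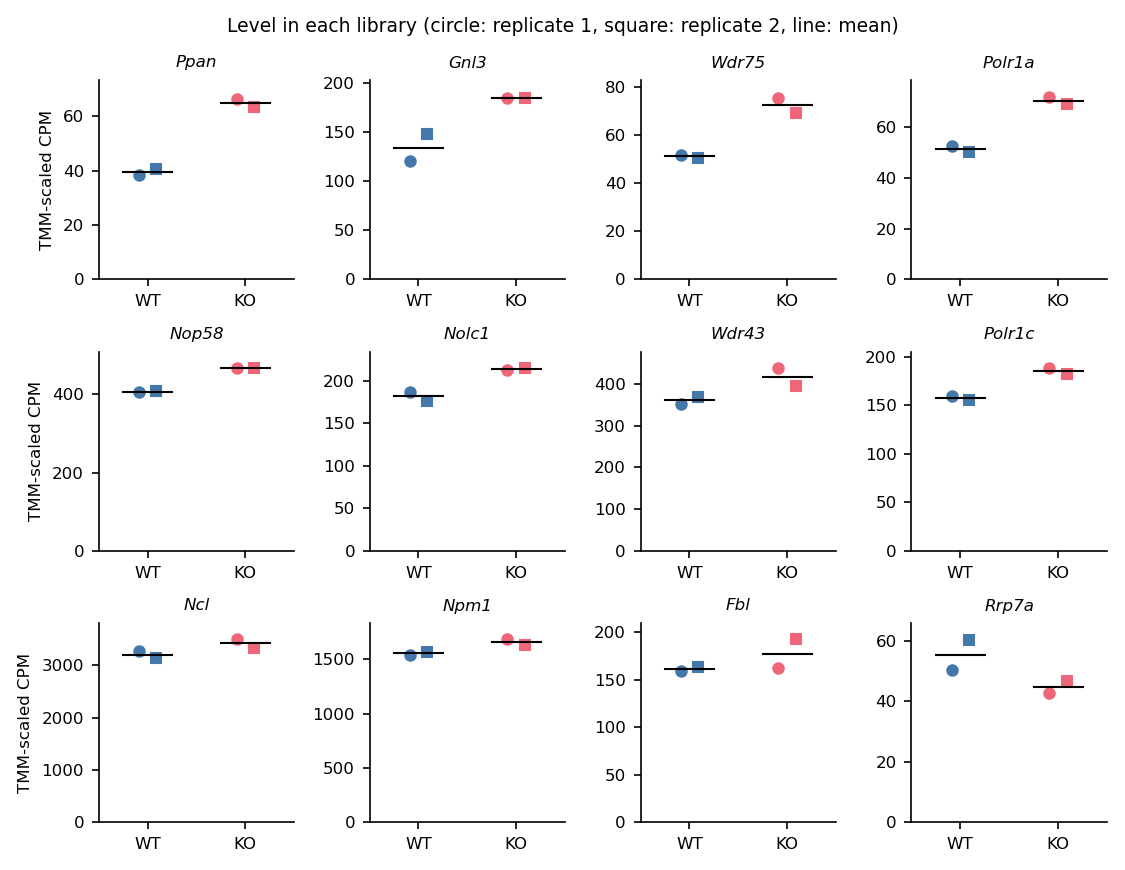
TMM-scaled CPM (y axis, from 0, own scale for each gene) in each of the 4 libraries for 12 of the 46 genes, with circles for replicate 1, squares for replicate 2 and a line at the mean of each genotype. The 12 genes were picked by hand with their values known and include the 3 that rose, so they do not stand for the 46. Knockout values lie above wild-type values without overlap in 10 of the 12 panels, while they overlap for Fbl and lie below for Rrp7a. Among all 46 genes they lie above without overlap in 22, and among all tested genes in 21.5%.

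Box C/D snoRNPs methylate ribosomal RNA. Fbl encodes fibrillarin, their methyltransferase, Nop56 and Nop58 encode their core scaffold, and Nolc1 encodes a chaperone of snoRNPs. All 4 had fold changes above 0, with a median of 0.20, and 0 passed the test. Nop58 was at 405 and 409 CPM in wild type and at 468 and 467 CPM in knockout, with little spread inside either genotype (0.20, SE 0.0714, adjusted p = 0.151). Nolc1 was at 187 and 177 against 213 and 215 CPM (0.24, SE 0.0867, adjusted p = 0.174), and Nop56 at 193 and 189 against 221 and 217 CPM (0.20, SE 0.0855, adjusted p = 0.276). These 3 genes separated by genotype. Fbl did not, at 159 and 163 against 162 and 192 CPM, where knockout replicate 2 alone was high (0.14, adjusted p = 0.58). Nop56, Fbl and Nop58 share stretches near their 3' ends with other transcripts, pseudogenes among them for Nop56 and Fbl, and are uncertain in that respect.

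Box H/ACA snoRNPs turn uridines of ribosomal RNA into pseudouridines, with dyskerin (Dkc1) as the enzyme and Gar1, Nhp2 and Nop10 as its partners. The complex holds the 4 proteins together, and the median over their genes was 0.12 with 0 past the test. Dkc1 was at 156 and 168 CPM in wild type and 183 and 184 CPM in knockout (0.18, SE 0.0903, adjusted p = 0.388). Gar1 was at 161 and 135 against 167 and 178 CPM (0.22, SE 0.0969, adjusted p = 0.291). Both separated by genotype, by little for Gar1. Nop10 was at 244 and 222 against 217 and 250.3 CPM and overlapped (0.00, 95% interval -0.18 to 0.18), as did Nhp2, at 58.0 and 51.7 against 54.4 and 59.9 CPM (0.06, adjusted p = 0.916).

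Nucleolin (Ncl) and nucleophosmin (Npm1) are abundant nucleolar proteins with roles in several steps, and together their transcripts made up 52.3% of the summed level of the 46 genes in wild type and 51.5% in knockout. Ncl was at 3271 and 3136 CPM in wild type and 3505 and 3332 CPM in knockout (0.09, SE 0.0523, adjusted p = 0.45). Npm1 was at 1540 and 1571 against 1690 and 1630 CPM (0.09, SE 0.0573, adjusted p = 0.503). For both genes the knockout libraries were the higher ones, as for 21.5% of all tested genes. Both intervals lie between -0.02 and 0.21, so that a change as large as that of Ppan is outside them. Npm1 has near-identical processed pseudogenes. Summed over the 46 genes, the level was 9130 and 9066 CPM in wild type and 9995 and 9718 CPM in knockout, 8.33% higher on average in the knockout. Without Ncl and Npm1 it was 4319 and 4360 against 4800 and 4755 CPM, 10.1% higher. The sum was higher on average in the knockout for each of the 6 role groups, from 6.05% (small subunit processome and 40S maturation) to 14.7% (box C/D snoRNPs with Nolc1). The sums of the small subunit group overlapped, at 1409 and 1457.4 CPM in wild type against 1583 and 1456.9 CPM in knockout. In the other groups both knockout sums were the higher ones, by little for box H/ACA snoRNPs (619.2 and 577.4 against 621.4 and 672.5 CPM).

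Genes that host small nucleolar RNAs are frequent among the 46. A GENCODE snoRNA gene lay inside 7 of them on the same strand (Ppan, Gnl3, Ncl, Nop56, Nop58, Wdr43 and Dkc1), or 15.2%, against 1.68% of 10534 tested protein-coding genes. These 7 hold 21 snoRNA genes, 20 of them inside introns of all protein-coding transcripts of the host. In all 7 hosts both knockout libraries were above both wild-type libraries, as in 15 of the other 39 genes and 21.5% of all tested genes. The median log2 fold change was 0.20 (0.09 to 0.72) in the hosts and 0.07 (-0.31 to 0.50) in the other 39 genes. This split was made after the values were seen and is a description without a test. Fold changes of host genes outside the 46 were not compared. Of the 7 hosts, 2 passed the gene test, where 2.66% of all tested genes did.

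The promoters of the 3 genes that rose are shown from 250 bases before to 30 bases after the start (RefSeq, GRCm38.p6, 5′ to 3′ on the gene's strand), so that the genes that rose can be read side by side. Capitals mark CCGGAAG, a core of binding sites of ETS factors, on either strand. The E-box CACGTG, bound by MYC with MAX, was also searched and was in none of the 3.
Ppan (chr9:20887925-20888204, plus): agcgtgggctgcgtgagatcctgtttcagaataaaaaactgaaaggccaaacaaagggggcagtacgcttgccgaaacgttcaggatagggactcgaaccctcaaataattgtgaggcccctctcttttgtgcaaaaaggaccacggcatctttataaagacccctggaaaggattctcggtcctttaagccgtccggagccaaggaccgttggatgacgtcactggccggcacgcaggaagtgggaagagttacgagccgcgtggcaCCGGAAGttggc
Gnl3 (chr14:31019102-31019381, minus): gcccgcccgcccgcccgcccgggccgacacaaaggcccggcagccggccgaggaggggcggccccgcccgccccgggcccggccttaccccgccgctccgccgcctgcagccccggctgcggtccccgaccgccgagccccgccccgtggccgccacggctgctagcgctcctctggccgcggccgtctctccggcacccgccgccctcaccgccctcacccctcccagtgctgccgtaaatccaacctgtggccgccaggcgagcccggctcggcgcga
Wdr75 (chr1:45794916-45795195, plus): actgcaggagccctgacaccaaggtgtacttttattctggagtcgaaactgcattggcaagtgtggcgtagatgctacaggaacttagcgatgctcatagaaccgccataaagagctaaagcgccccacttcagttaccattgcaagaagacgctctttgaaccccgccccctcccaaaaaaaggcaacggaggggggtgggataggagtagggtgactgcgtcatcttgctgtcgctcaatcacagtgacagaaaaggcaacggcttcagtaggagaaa

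The promoter table matched 38 of the 46 genes, with 43 windows of 300 bases. CACGTG was in the windows of 7 of these genes (Nop2, Pes1, Rrp7a, Utp14b, Utp18, Utp20 and Wdr43), or 18.4%, against 8.09% of all genes in the table and 11.9% of those tested here. The 7 genes had a median log2 fold change of 0.04 with 0 called, and the other 31 had 0.16 with 3 called. Of all tested genes, 2.66% were called, so 0 calls among 7 genes say little. This split is a description without a test. CCGGAAG, on either strand, was in the windows of 11 genes, or 28.9%, against 9.93% of all genes in the table and 21.6% of those tested.

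The wider pathway was described through 7 lists of genes outside the 46, with 148 tested genes, of which 1 rose and 0 fell. Over all tested genes, 1.45% rose and 1.21% fell. DESeq2 did not call the 1 gene of these lists that rose. This gene was Znhit6, an assembly factor of box C/D snoRNPs, at 41.6 CPM in both wild-type libraries and 56.9 and 61.7 CPM in the knockout libraries (0.51, SE 0.139, adjusted p = 0.038). Its call was lost without any 1 of the libraries (adjusted p from 0.0979 to 0.244), with upper quartile scaling (0.063), with the replicate block (0.061) and with DESeq2 (0.0883). For the other processing factors, which did not pass the test, the median was 0.11 over 40 further factors of the small subunit processome and 40S and also 0.11 over 45 further 60S factors. Both knockout libraries were the higher ones in 15 of the former (37.5%) and in 20 of the latter (44.4%), against 21.5% of all tested genes. They were the lower ones in 4 and 2, against 21.9% of all tested genes. The 11 snoRNP assembly factors had a median of 0.13 and the 10 tested subunits of RNA polymerase III one of 0.11. The medians were 0.03 for 13 other genes of RNA polymerase I (the 3 further subunits with factors of initiation and termination). They were 0.05 for 14 genes of the RNA exosome and 0.03 for 15 genes of the MYC network and mTORC1. Both knockout libraries were the higher ones in 3 of the 11 snoRNP assembly factors and 5 of the 10 RNA polymerase III subunits. The same held for 3 genes each of other RNA polymerase I, the exosome and the MYC list, against 21.5% of all tested genes. Both knockout libraries were the lower ones in 1, 2, 3, 1 and 4 genes of these lists in that order, against 21.9%. Among initiation factors, Rrn3 was at 44.4 and 46.1 against 47.7 and 54.9 CPM (0.18, adjusted p = 0.654) and Ubtf at 99.1 and 92.4 against 111 and 95.2 CPM (0.11, adjusted p = 0.741). Of the 13 other RNA polymerase I genes, 7 had a log2 fold change above 0, and the values ran from -1.97 to 0.47. Myc itself was at 19.3 and 18.8 CPM in wild type and 18.4 and 27.3 CPM in knockout, where replicate 2 alone was high (0.26, SE 0.221, adjusted p = 0.681).

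**Figure D4:**
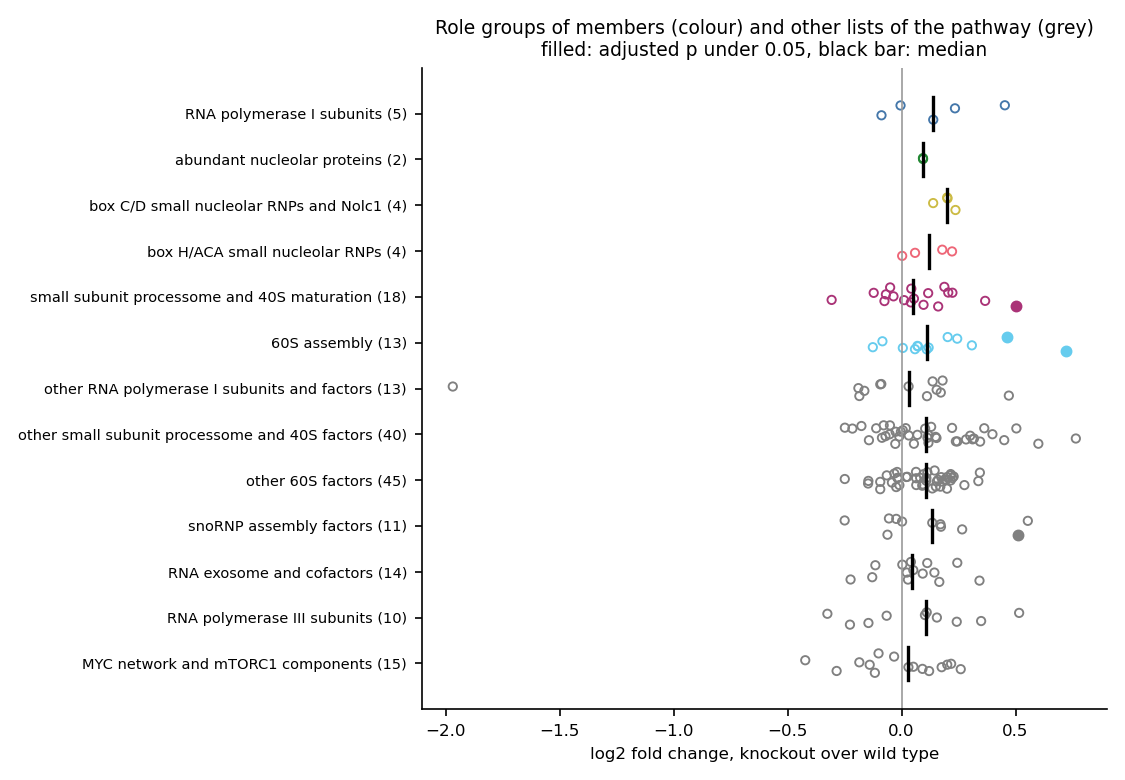
Log2 fold change of knockout over wild type (x axis) of single genes in the 6 role groups of the 46 genes (colour) and in 7 lists of other genes of the pathway (grey), with the number of tested genes in brackets and a black bar at the median. Filled points have an adjusted p under 0.05, 3 among the 46 genes and 1 (Znhit6) in the other lists, and the medians of all 13 groups lie between 0.03 and 0.20.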

How the data were processed

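Each library came as a text file of whole-number, unnormalized counts that the authors deposited, listed by gene symbol. The submitters' processing notes name Bowtie2, edgeR and mm10 without role or version. The counting tool, the annotation, strand use and the treatment of reads with several matches were not given in the sources used here. Libraries were made from 500 ng of total RNA, per the labels' protocols. Counts of 35 symbols listed more than once, none of the 46 genes, were summed. All 4 libraries entered edgeR's quasi-likelihood test (edgeR 4.0.16, R 4.3.3, two-sided), with filterByExpr (11464 of 23238 symbols tested), TMM scaling (factors 0.989 to 1.01), genotype as the only term and Benjamini-Hochberg adjustment over all tested genes. SE is the absolute log2 fold change divided by the square root of F, and 95% intervals, not adjusted for the number of genes, use the fit's degrees of freedom. Levels are TMM-scaled CPM, as each library's value or as mean ± SD (n = 2). "Rose" and "fell" are used for adjusted p under 0.05. A floor of 3 counts is 0.308 to 0.339 CPM and covers counting error only. The scripts were tested on simulated data.

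Members, lists, roles and the rule for named genes were chosen with earlier results of these data known. Full values are given for genes past the test, the 5 smallest p in each direction at 10 CPM or more, the 2 highest of each role and uncertain genes, with others from the lists. Sums over the genes carry no p, although an exact permutation test was planned. With 2 against 2 libraries the smallest p that this two-sided test can give is 0.333. Positions and snoRNA genes are from GENCODE vM21 and promoters from RefSeq. The last 300 bases of each gene's transcripts were compared with all GENCODE transcripts (at least 100 bases at 95% identity), which found copies for 7 genes (Fbl, Nop56, Nop58, Npm1, Polr1b, Rrp7a and Wdr12). Another gene lay over the last 500 bases of 11 genes (Bop1, Dkc1, Nhp2, Nop56, Nop9, Polr1e, Rrp36, Rrp7a, Utp14a, Utp14b and Utp23), so reads may have been shared there. It was on the same strand for Utp14b alone, and for the others sharing would depend on the strand use in counting. The 3 genes that rose had neither such copies nor such overlaps. Alternatives were other scalings, filters and tools (DESeq2 1.42.0, limma-voom in limma 3.58.1), Rn45s left out, the replicate number as a block and each library left out.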

Additional observations from a re-analysis of the deposited data

How the results depend on the processing

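Over the 13 alternatives, 558 of 598 results for single genes of the 46 kept their direction and side of the threshold, and Ppan was called in all. Without wild-type replicate 1, 1 gene rose, and the number that rose was 1 to 2 over the analyses without 1 library and 3 to 4 in the others, with 0 falls throughout. With 1 library left in a genotype, it is assumed to vary like the other genotype. The median log2 fold change was 0.093 to 0.129 without 1 library. The summed level was 758 CPM higher in the knockout, 901 with library size only, and 620 to 897 without 1 library. Library size only moved the median of all genes to 0.02. The Rn45s change was 0.0070 with library size only and -0.063 to 0.031 without 1 library. All calls over the whole table numbered 305, and 170 without knockout replicate 1 and 184 without wild-type replicate 2.

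The sign turned in 31 results of 17 genes, each at most 0.14 in size under the reported settings. With library size only Polr1d was at 0.017, with upper quartile scaling Nop2, Nop10 and Utp6 were at -0.0067, -0.0087 and -0.0016, and with the stricter filter (5 CPM) Nop2 and Nop10 were at -0.00037 and -0.0033. Ranges without 1 library that crossed 0 were -0.019 to 0.17 for Rrs1, -0.035 to 0.15 for Nop16, -0.42 to 0.36 for Bop1, -0.13 to 0.13 for Nop2, -0.010 to 0.28 for Polr1b, -0.28 to 0.14 for Polr1e, -0.081 to 0.073 for Polr1d, -0.024 to 0.14 for Nhp2, -0.10 to 0.10 for Nop10, -0.0091 to 0.19 for Utp20, -0.040 to 0.14 for Utp11l, -0.10 to 0.020 for Utp3, -0.0024 to 0.084 for Nop14, -0.26 to 0.086 for Utp14b, -0.33 to 0.24 for Rrp36, -0.14 to 0.20 for Utp18, -0.10 to 0.11 for Utp6 and -0.052 to 0.52 for Myc. The cause was not tested.

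Replicate numbers occur in both genotypes, but no label says that they mark a shared source, and the deviations of same-numbered libraries correlated at 0.01 across genes. With the replicate block 3 of the 46 genes rose, 0 fell, and the median was 0.10.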
